A study of Drosophila melanogaster with 12 samples.

Results

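Cytochrome P450 genes were compared between tissues and MiT genotypes of Drosophila melanogaster larvae. The members were the probe sets whose gene symbol in the files reads Cyp, a digit and a letter, without Cyp18a1 and without the ecdysone-synthesis P450 genes, which carry other symbols. The brightest probe set over the 12 arrays was kept for each gene. This gave 80 members among 18769 probe sets that are not Affymetrix controls. The members stand for 81 genes, because Cyp12d1-d and Cyp12d1-p share a probe set, and they fall into 19 CYP number families. Families 4 and 6 have 22 members each, families 9, 12 and 313 have 6 each, family 28 has 4, and family 309 has 2.

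Each of the 4 groups has 3 arrays. The first group is hindgut with Malpighian tubules from MiT mutant larvae of the genotype MiTTZ2/Df(4)TZ, whose array titles read EMSTZ2. Its control is the same tissue, called hindgut-tubule here, from larvae labelled wild type. The third group is wing discs labelled nub-MiT, in which nub-Gal4 drives a UAS-MiT transgene, and its control is wing discs with nub-Gal4 alone. MiT, the only MITF-type transcription factor gene of the fly, is named Mitf in the files, and the study asked which loci rise with MiT gain in the wing disc and fall with MiT loss in the hindgut and tubules. All larvae were at stage L3 and were grown at 25 °C on normal food. The strain backgrounds are not given in the labels, so neither the mutation nor the UAS-MiT transgene can be told apart from a difference in background, and tissue cannot be told apart from the nub-Gal4 genotype where wild-type hindgut-tubule is set against control discs. Cyp6g1, Cyp12d1 and the Cyp6a17 and Cyp6a23 pair are known to differ between fly strains. Nub-Gal4 acts in the wing-forming region of the disc, so a disc sample also holds cells outside its domain. The labels do not say whether the arrays of a group came from separate batches of animals, so the p-values reflect the spread among the arrays alone, which may be technical.

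Cytochrome P450 enzymes are heme proteins that insert oxygen into small molecules. Most fly members sit in the endoplasmic reticulum and take electrons from the reductase Cpr, while the family 12 enzymes and a few others sit in mitochondria and take them from ferredoxins. Families 6 and 9 and parts of families 4, 12 and 28 include enzymes that break down plant toxins and insecticides, and the Malpighian tubule, gut and fat body are the main sites of that work in the fly. Other P450 enzymes make hormones, cuticular lipids or signals in development.

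Values are the authors' log2 expression values. A log2 value of 4 is used here as the level below which a probe set was not told apart from background, and a fold against a group with all 3 arrays under it is given as a lower bound. No difference between the levels of different probe sets is reported. Adjusted p-values are limma's, with Benjamini-Hochberg adjustment over all probe sets tested in a comparison and a threshold of 0.05. A gene is said to be higher or lower in a comparison, without further words, where it passed that threshold.

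The tissues and the targeted gene were checked first. All 10 Malpighian tubule markers, such as Uro and salt, and 4 of 6 hindgut markers, among them byn and cad, were higher in wild-type hindgut-tubule samples than in control discs. Of the other hindgut markers, bowl was lower there (log2 difference -2.79) and drm was not called (0.11). Of the wing disc markers, 7 of 7 tested, such as vg and ap, were lower. Only probe sets at log2 4 or more on at least 3 of the 6 arrays compared were tested. The 4 higher hindgut markers and 8 of the tubule markers had no control disc array over that level, so this filter fixed their direction. It also fixed that of vg, ap, ara and Dll, which were under the level on all wild-type hindgut-tubule arrays. Over all tested probe sets, 29.6% were higher and 47.5% lower. The hindgut-tubule samples also carried fat body transcripts, with a mean log2 level over 8 markers of 11.04 to 13.03 on the mutant arrays and 11.88 to 13.51 on the wild-type arrays. The same mean was 9.54, 6.30 and 3.75 on the 3 arrays labelled nub-MiT, against 9.28, 8.03 and 9.76 on the control disc arrays, so fat body transcripts vary between disc arrays of 1 group. Salivary gland glue genes varied as well, with means over 6 markers of 2.78, 10.55 and 5.38 in the discs labelled nub-MiT, against 6.47, 3.15 and 13.35 in control discs. Mitf itself was at 4.54, 4.19 and 4.51 in mutant hindgut-tubule samples, against 7.05, 6.55 and 6.16 in wild type, and the groups did not overlap (log2 difference -2.17, SE 0.26, adjusted p = 0.00919; without mutant array 3, adjusted p = 0.0507). In the discs Mitf was at 8.02, 8.11 and 8.21 in those labelled nub-MiT, against 7.93, 7.91 and 8.15 in control discs, and it was not called (log2 difference 0.12, adjusted p = 0.372). The files do not say which stretch of the transcript this probe set reads, so the transgene label is not checked by it.

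Of the 80 members, 45 reached log2 4 on all 3 arrays in mutant hindgut-tubule samples and 45 in wild type, against 21 in discs labelled nub-MiT and 16 in control discs. The members under that level on every array of a group numbered 29 in mutant and 31 in wild-type hindgut-tubule samples, 51 in discs labelled nub-MiT and 59 in control discs. The hindgut-tubule samples therefore held more measured P450 genes than the discs. On all 12 arrays, 25 members stayed under the level. These include 5 of the 6 family 313 members, Cyp303a1, which is needed for sensory bristles, Cyp4g15, known from the nervous system, and Cyp6g2, which can confer insecticide resistance when overexpressed. Families 9 and 12 were measured throughout in hindgut-tubule, with 6 of 6 members of each over the level on all arrays of both groups there. In control discs, 3 of 6 family 9 members and 1 of 6 family 12 members did so.

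**Figure D1:**
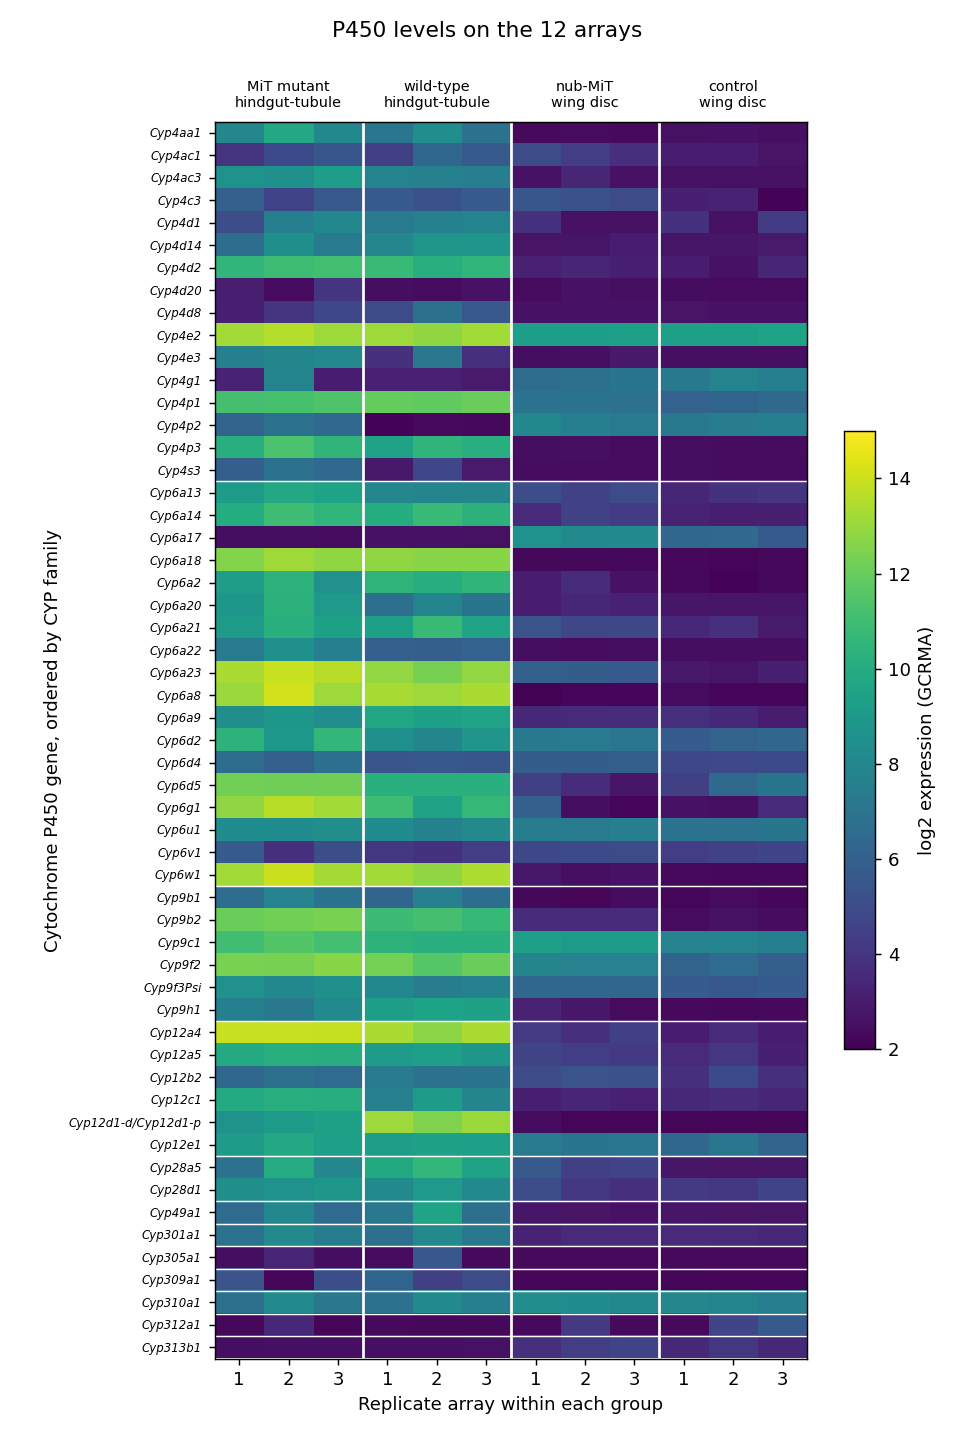
Log2 expression (GCRMA, colour scale) of the P450 members that reached log2 4 on at least 1 of the 12 arrays, with genes in rows ordered by CYP family and arrays in columns: MiT mutant hindgut-tubule, wild-type hindgut-tubule, discs labelled nub-MiT and control discs. Most rows are bright in the 6 hindgut-tubule columns and dark in the 6 disc columns, and Cyp4g1, Cyp4p2 and Cyp6a17 run the other way against wild-type hindgut-tubule.

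Setting wild-type hindgut-tubule against control discs asks how P450 transcripts differ between an excretory tissue and an epithelium that forms a wing. Of the 49 members tested, 44 were higher in wild-type hindgut-tubule samples, 4 were lower and 1, Cyp310a1, was not called. The shares over all tested probe sets were 29.6% higher and 47.5% lower. Tested members had a median log2 difference of 4.56, beside -0.37 over all tested probe sets. With values under log2 4 set to 4, these medians were 3.85 and -0.35. That overall median became -0.25 after quantile normalization and -0.18 after centring each array on its median. A member that was over the level only in hindgut-tubule had to differ, and this was so for 30 of the 49, which had no control disc array over log2 4. Among the 12 members over log2 4 on all 6 arrays, where this does not apply, 11 were higher and 0 were lower, beside 26.0% and 46.7% of all probe sets of that kind. For 48 of the 49 the ranges of the groups were apart, beside 82.3% of all tested probe sets. The filter left no overlap possible for the 30 above, nor for the 3 members with no wild-type hindgut-tubule array over log2 4. In bulk samples, fewer cells of a type and less RNA per cell cannot be told apart. The fat body list moved with this comparison, since 7 of its 8 markers were higher in wild-type hindgut-tubule samples, and its part in the P450 differences was not tested. So did the midgut list, of which 5 of 7 markers were under log2 4 on all wild-type hindgut-tubule arrays and 6 of 7 on all control disc arrays. The 2 tested, mex1 and alphaTry, were at least 80.3-fold and 19.1-fold higher in wild-type hindgut-tubule samples, and the mean over the list was 3.94 to 4.38 there, against 2.20 to 3.17 in control discs. Neither had a control disc array over log2 4, nor did the fat body marker Apoltp, so the filter fixed the direction of these markers.

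Family 6 holds most of the genes studied in insecticide resistance, and 16 of its 18 tested members were higher in wild-type hindgut-tubule samples and 2 were lower, with a median log2 difference of 5.32 (4.92 with values under log2 4 set to 4, the quantity in parentheses after each further family median). Only Cyp6d2, Cyp6d4, Cyp6d5 and Cyp6u1 of this family were over log2 4 on all 6 arrays, where the filter fixes no direction, and each was higher. Cyp6a8, which drugs such as phenobarbital and caffeine induce, was at 13.32, 13.12 and 13.36 in wild-type hindgut-tubule samples, against 2.37, 2.23 and 2.16 in control discs. It was at least 617-fold higher (adjusted p = 2.01e-08). Cyp6w1, linked to DDT resistance, was at 13.19, 12.83 and 13.38 in wild-type hindgut-tubule samples, against 2.32, 2.30 and 2.29 in control discs. This made it at least 562-fold higher (adjusted p = 3.6e-08). Cyp6a18 was at least 426-fold higher and Cyp6a23 at least 422-fold, and both were again under log2 4 on every control disc array. Cyp6a2, an insecticide-metabolising enzyme whose gene phenobarbital induces, was at 10.45, 10.11 and 10.50 in wild-type hindgut-tubule samples, against 2.30, 2.15 and 2.26 in control discs, which is at least 81.6-fold higher (adjusted p = 6.8e-08). Cyp6g1, whose raised expression gives resistance to DDT and neonicotinoids in some strains, was at 10.96, 9.49 and 10.66, against 2.61, 2.51 and 3.57, and was at least 82.8-fold higher (adjusted p = 1.37e-05).

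At the other end of family 6 were genes with small or negative differences. Cyp6u1 and Cyp6d4 were higher by 1.08 and 0.64 on the log2 scale (adjusted p = 0.00148 and 0.00132). Cyp6a17, known for a role in temperature preference, was at 2.62, 2.65 and 2.58 in wild-type hindgut-tubule samples, against 6.35, 6.46 and 5.68 in control discs. It was thus measured in control discs and under the level in hindgut-tubule, at least 4.47-fold lower (adjusted p = 1.38e-05). Its neighbour and close paralogue Cyp6a23 had the opposite difference, and how far their probe sets cross-hybridise was not tested. Cyp6v1 was at 4.09, 3.90 and 4.34 in wild-type hindgut-tubule samples, against 4.37, 4.58 and 4.72 in control discs. That small difference (-0.45, adjusted p = 0.0392) lost its call without wild-type array 1 or 2 or control disc array 2 or 3, with adjusted p-values of up to 0.125.

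Family 4 had 11 of 13 tested members higher in wild-type hindgut-tubule samples and 2 lower, with a median of 4.09 (3.57). Only Cyp4e2 and Cyp4p1 of this family were over log2 4 on all 6 arrays, where the filter fixes no direction, and each was higher. Cyp4p3 was at least 65.6-fold higher, with 9.49, 10.49 and 10.13 in wild-type hindgut-tubule samples and 2.46, 2.41 and 2.43 in control discs (adjusted p = 8.45e-07). Cyp4d2 was at 10.75, 10.20 and 10.55, against 3.03, 2.65 and 3.39, and was at least 90.6-fold higher (adjusted p = 6.48e-07). Cyp4e2 was measured on all arrays of both tissues and still differed, with 13.09, 12.82 and 13.21 in wild-type hindgut-tubule samples and 9.34, 9.40 and 9.52 in control discs, a 12.3-fold difference (adjusted p = 1.68e-06). The 2 lower members were under the level on every wild-type hindgut-tubule array. Cyp4g1, which makes cuticular hydrocarbons in oenocytes, was at 3.17, 3.21 and 2.92 there, against 7.25, 7.80 and 7.60 in control discs (at least 11.7-fold lower, adjusted p = 1.92e-06). Cyp4p2 was at 2.15, 2.34 and 2.28, against 7.26, 7.49 and 7.61 in control discs (at least 10.9-fold lower, adjusted p = 2.65e-07). Cyp4p2 thus ran opposite to its neighbours Cyp4p1 and Cyp4p3, the first of which was 51.1-fold higher in wild-type hindgut-tubule samples.

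The mitochondrial family 12 was higher in wild-type hindgut-tubule samples for 6 of 6 members, with a median of 5.13 (4.68). Cyp12a4, Cyp12c1 and the Cyp12d1 pair had no control disc array over log2 4, so the filter fixed their direction. Only Cyp12e1 was over log2 4 on all 6 arrays. The shared Cyp12d1-d and Cyp12d1-p probe set was at 13.09, 12.49 and 13.02 in wild-type hindgut-tubule samples, against 2.25, 2.20 and 2.23 in control discs, at least 467-fold higher (adjusted p = 6.04e-08). Cyp12a4, whose overexpression can give resistance to the insect growth regulator lufenuron, was at 13.36, 12.76 and 13.33, against 3.00, 3.59 and 3.00, at least 569-fold higher (adjusted p = 2.1e-07). Its second, dimmer probe set stayed under log2 4 on all 12 arrays. Cyp12e1 was measured in both tissues and was higher in wild-type hindgut-tubule samples by 2.81 on the log2 scale. Its second probe set gave 9.79-fold.

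Family 9 had 6 of 6 members higher, with a median of 5.17 (4.13), from 4.10-fold for Cyp9f3Psi, which RefSeq now lists as Cyp9f3, to at least 122-fold for Cyp9b2. Cyp9c1, Cyp9f2 and Cyp9f3Psi were over log2 4 on all 6 arrays. The other members of the family had no control disc array over it, so the filter fixed their direction. Cyp9b2 was at 10.93, 11.16 and 10.69 in wild-type hindgut-tubule samples, against 2.38, 2.59 and 2.41 in control discs. Family 28 had 2 of 2 tested members higher. The single-member families 49 and 301, both mitochondrial, and Cyp309a1 were higher as well. Of these and the family 28 members, Cyp28d1 alone was over log2 4 on any control disc array. The filter fixed the direction of the rest. Cyp301a1, which is needed to form the adult cuticle, was at 6.78, 8.17 and 7.27 in wild-type hindgut-tubule samples, against 3.59, 3.56 and 3.52 in control discs, at least 10.6-fold higher (adjusted p = 7.08e-05). Cyp310a1, the tested member that was not called, had 6.90, 8.23 and 7.59 in wild-type hindgut-tubule samples, against 8.01, 7.88 and 7.57 in control discs, and the ranges overlapped (log2 difference -0.25, 95% interval -1.07 to 0.57, adjusted p = 0.527).

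**Figure D2:**
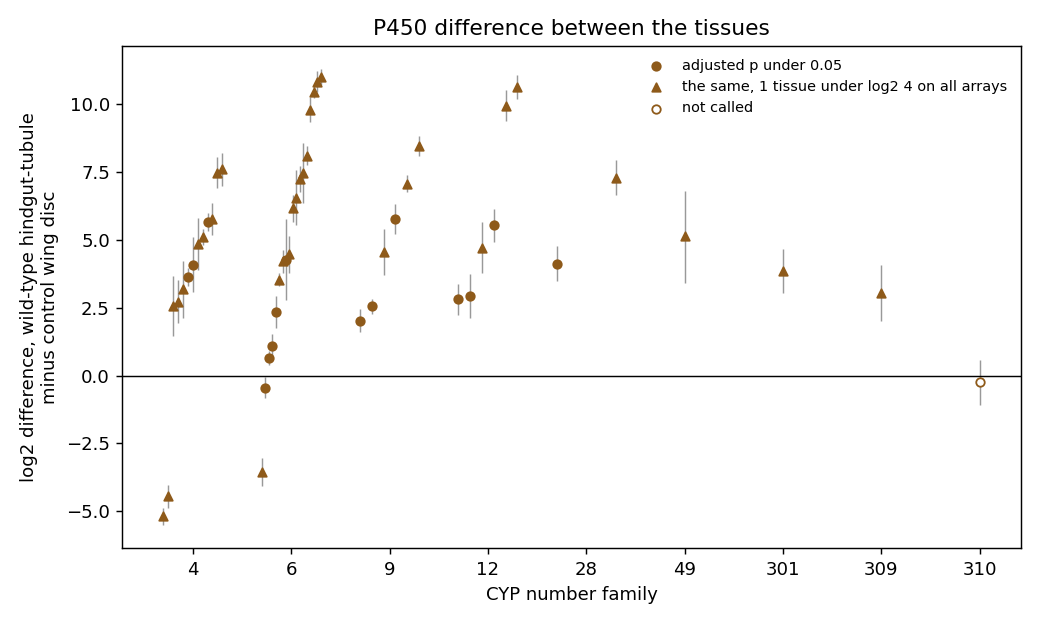
Log2 difference of each tested P450 member, wild-type hindgut-tubule minus control wing disc, by CYP family, with 95% intervals. Filled points and triangles passed an adjusted p of 0.05: 44 lie above 0 and 4 below it, and the open point is Cyp310a1. Triangles mark members under log2 4 on all arrays of 1 tissue, whose sizes are lower bounds in the text and whose places here rest on background values.

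The members of the tissue comparison that lie next to each other on the chromosomes did not all share a direction. With at most 3 genes between neighbours, 44 members fall into 15 runs by the RefSeq gene order. The longest run holds 9 members, Cyp6a22, Cyp6a17, Cyp6a23, Cyp6a19, Cyp6a9, Cyp6a20, Cyp6a21, Cyp6a8 and Cyp317a1. In it 6 of 7 tested members were higher in wild-type hindgut-tubule samples and 1, Cyp6a17, was lower, while Cyp6a19 and Cyp317a1 were under the level on all 12 arrays. Each of the 7 was under log2 4 on every array of 1 tissue. It could pass the filter only through the tissue where it was higher, so its direction was fixed. In the run of Cyp4p2, Cyp4p1 and Cyp4p3, 2 were higher and Cyp4p2 was lower. Of this run, Cyp4p1 alone was over the level in both tissues and could have gone either way. Runs with no measured member also occurred: Cyp313a5, Cyp313a2 and Cyp313a3 form one and Cyp311a1 with Cyp318a1 another.

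The comparison of MiT mutant with wild-type hindgut-tubule samples asks which transcripts depend on MiT there. Of 49 members tested, 9 were higher in the mutant and 3 were lower, beside 2.42% higher and 2.14% lower among all tested probe sets. The higher ones were Cyp4p2, Cyp4s3, Cyp6g1, Cyp6d5, Cyp6a22, Cyp6a13, Cyp9b2, Cyp12a5 and Cyp9c1, and the lower ones were the Cyp12d1 pair, Cyp9h1 and Cyp6a9. The tested members had a median log2 difference of 0.29, beside 0.00 over all tested probe sets, and 33 of the 49 differences were positive. The ranges of the groups were apart for 25 members, beside 27.0% of all tested probe sets. For 1 of these, Cyp4p2, the filter left no overlap possible, since all wild-type arrays were under log2 4. Among the 42 members over log2 4 on all 6 arrays, 7 were higher and 3 were lower, beside 1.83% and 1.74% of all such probe sets. Of the 8 fat body markers limma called 0, with 0 at an unadjusted p under 0.05 and 0 in the authors' deposited table, and their mean level overlapped between the groups. Of the 10 tubule markers, SecCl alone was called, higher by 0.89. Limma called 0 of 8 muscle markers, with 3 at an unadjusted p under 0.05 and 1, wupA, in the authors' deposited table; the median muscle difference was 0.52, and mean levels were 11.89 to 12.58 in the mutant, against 11.54 to 11.91 in wild type. It called 0 of 2 tested midgut markers, with mex1 (0.74) at an unadjusted p under 0.05 and in the authors' deposited table and alphaTry at 1.30. The mean midgut level was 4.45 to 4.61 in the mutant, against 3.94 to 4.38 in wild type. The part of these lists in the P450 differences was not tested.

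These counts rest on the arrays used. Only 3 of the 12 calls, Cyp4p2, Cyp6d5 and the Cyp12d1 pair, were kept whichever array was left out. By the adjusted p-values of the authors' deposited table Cyp6d5 was not called (0.151), while Cyp4p2 and the Cyp12d1 pair were. The counts higher and lower were 5 and 1 without mutant array 1, 11 and 5 without mutant array 2, 2 and 2 without mutant array 3, 3 and 1 without wild-type array 1, 9 and 1 without wild-type array 2, and 2 and 1 without wild-type array 3. Arrays with the same number deviated together in this tissue, and with the number as a block 8 were higher and 2 lower. Cyp6a22, Cyp6g1, Cyp9c1 and Cyp6a9 then lost their calls (adjusted p = 0.0557, 0.0608, 0.0657 and 0.0743), and Cyp4aa1 and Cyp6a20 gained one (0.0425 and 0.0157). Array 2 was the highest of its group for 27 of 42 members over the level in the mutant, for 18 in wild type and for 14 in both. Without array 2 of both groups, an alternative added after these values were seen, 16 members were higher and 4 were lower, among them all 12 of the calls with every array.

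Among the tested members the Cyp12d1 pair had the largest fall in the mutant. The Cyp12d1 genes encode mitochondrial enzymes that caffeine, phenobarbital and DDT induce. The probe set shared by both genes was at 8.66, 9.10 and 9.42 in mutant hindgut-tubule samples, against 13.09, 12.49 and 13.02 in wild type. It was 14.0-fold lower in the mutant but still well over the level (log2 difference -3.81, SE 0.26, adjusted p = 0.00147). A second probe set, which the files assign to Cyp12d1-d alone, was at 3.51, 3.55 and 4.73 in mutant samples, against 13.54, 12.88 and 13.31 in wild type. There the mutant arrays were at or near background, and with the arrays under log2 4 set to 4 the difference was 512-fold (adjusted p = 0.000292). Both probe sets were thus lower in the mutant, by different amounts, and no probe set for Cyp12d1-p alone was analysed here.

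Cyp9h1 and Cyp6a9 were the other lower members. Cyp9h1 was at 7.59, 7.27 and 8.23 in mutant samples, against 9.22, 9.53 and 9.45 in wild type (3.25-fold lower, adjusted p = 0.0248, and up to 0.11 with 1 array left out). Cyp6a9 was at 8.40, 8.88 and 8.39, against 9.74, 9.43 and 9.57 (2.03-fold lower, adjusted p = 0.0414, and up to 0.173 with 1 array left out). Neither pair of groups overlapped, and the Cyp9h1 call was lost without mutant array 1 or any wild-type array, the Cyp6a9 call without any array but mutant array 2.

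Among the higher members, Cyp4p2 was under the level on every wild-type array, with 6.14, 6.90 and 6.42 in mutant samples against 2.15, 2.34 and 2.28 in wild type. It was at least 5.61-fold higher (adjusted p = 0.00054). The mutant level of this gene lay between wild-type hindgut-tubule and the control discs, where it was at 7.26 to 7.61. Cyp6d5 varied little within each group, with 12.21, 12.16 and 12.16 in mutant samples against 10.24, 10.25 and 10.27 in wild type, 3.80-fold higher (adjusted p = 0.000936). Cyp6g1 was at 12.82, 13.58 and 13.18 in mutant samples, against 10.96, 9.49 and 10.66 in wild type, and the groups did not overlap (7.06-fold higher, adjusted p = 0.0209, and 0.0608 with the replicate block). Its call was also lost without mutant array 1 or 3 or wild-type array 3, with adjusted p-values of up to 0.0942. Without the filter Cyp6g1 lost its call too, and by the adjusted p-values of the authors' deposited table it was not called (0.157).

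Cyp4s3 was at 5.95, 6.88 and 6.45 in mutant samples, against 2.87, 4.78 and 2.95 in wild type, where array 2 stood above the other arrays (log2 difference 2.89, adjusted p = 0.0486, and up to 0.171 with 1 array left out). Cyp6a22 was at 7.31, 8.50 and 7.62, against 5.99, 5.94 and 6.08 (3.49-fold, adjusted p = 0.0332). Cyp6a13 was at 9.13, 9.85 and 9.56, against 8.04, 7.91 and 7.96 (2.91-fold, adjusted p = 0.0147). The mutant arrays lay above all wild-type arrays for each of these genes. Cyp9b2 was 2.47-fold higher, Cyp12a5 1.94-fold and Cyp9c1 1.88-fold (adjusted p = 0.0147, 0.034 and 0.0439). Without 1 array, the highest adjusted p of these 5 genes ran from 0.0831 for Cyp6a13 to 0.166 for Cyp9c1.

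Several members with large differences did not pass the test. Cyp4e3, whose knockdown in tubule cells is known to raise permethrin sensitivity, was at 7.60, 7.99 and 8.11 in mutant samples, against 3.85, 7.15 and 3.78 in wild type, so that array 2 of wild type stood close to the mutant arrays (log2 difference 2.97, adjusted p = 0.149). Cyp6a20, known for a role in male aggression, was at 8.86, 10.37 and 8.98, against 6.80, 7.87 and 7.03 (2.17, adjusted p = 0.0711). Cyp28a5 averaged 8.32 ± 1.56 in mutant samples, where array 2 lay above 2 of the wild-type arrays, against 9.88, 10.61 and 9.56 in wild type (-1.70, adjusted p = 0.308, SD over 3 arrays). Cyp4g1 was not tested, and its 7.85 on mutant array 2 stood apart from 3.22 and 3.04 on the other mutant arrays and from 3.17, 3.21 and 2.92 in wild type.

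Some of the genes with the largest tissue differences had intervals around 0 in the mutant, and others did not. The log2 difference of Cyp6a8 was 0.14 (95% interval -0.61 to 0.89), that of Cyp6a18 was 0.12 (-0.34 to 0.57) and that of Cyp6w1 was 0.35 (-0.29 to 0.98). Cyp6a2 had -0.95 (-2.06 to 0.16). The interval lay apart from 0 for the Cyp12d1 pair, at -3.81 (-4.45 to -3.17), and for Cyp9b2, at 1.30 (0.87 to 1.74). It also did for Cyp6a23, at 0.88 (0.31 to 1.45), and Cyp12a4, at 0.75 (0.26 to 1.23), which were not called. By family, 4 of 17 tested members of family 6 were higher and 1 was lower, 2 of 14 of family 4 were higher, 2 of 6 of family 9 were higher and 1 lower, and 1 of 6 of family 12 was higher and 1 lower. Whether families differ in this was not tested.

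**Figure D3:**
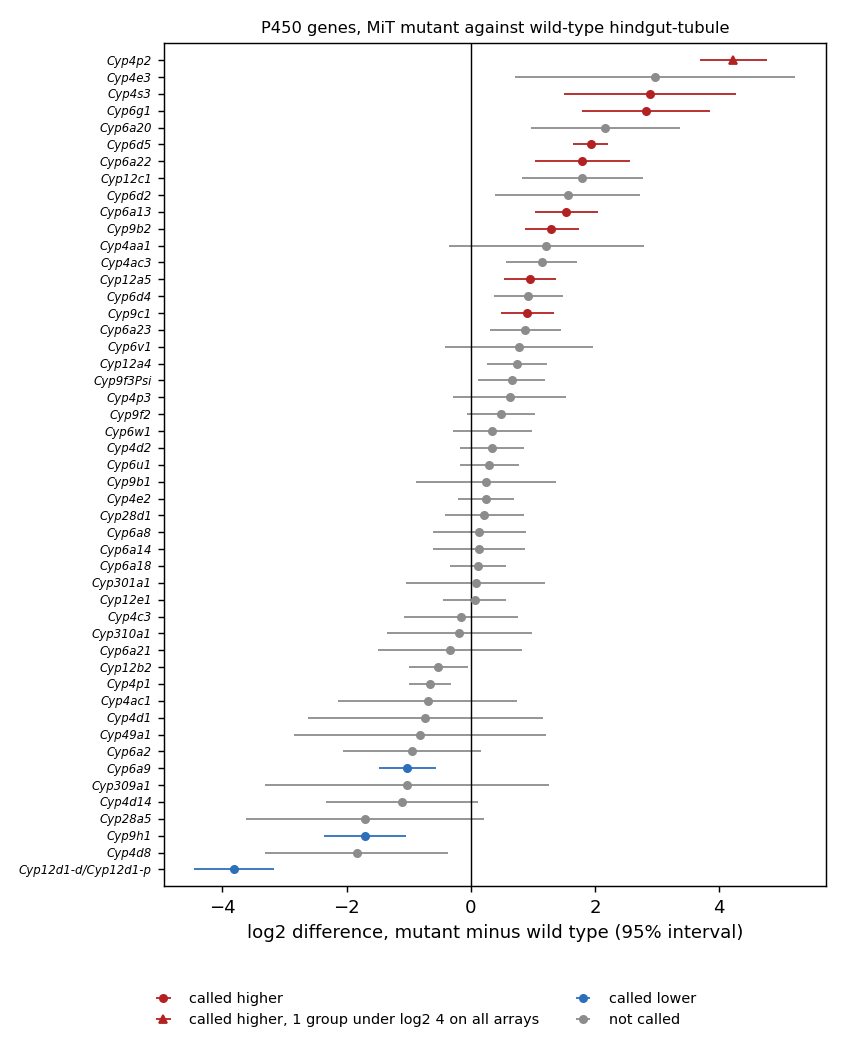
Log2 difference of each of the 49 tested P450 members, MiT mutant minus wild-type hindgut-tubule, with 95% intervals from limma. The triangle marks Cyp4p2, which was under log2 4 on all wild-type arrays, so its place at the top rests on background values and its size is known only as at least 5.61-fold. The Cyp12d1 pair lies at the bottom with -3.81, and 37 members in grey were not called.

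**Figure D4:**
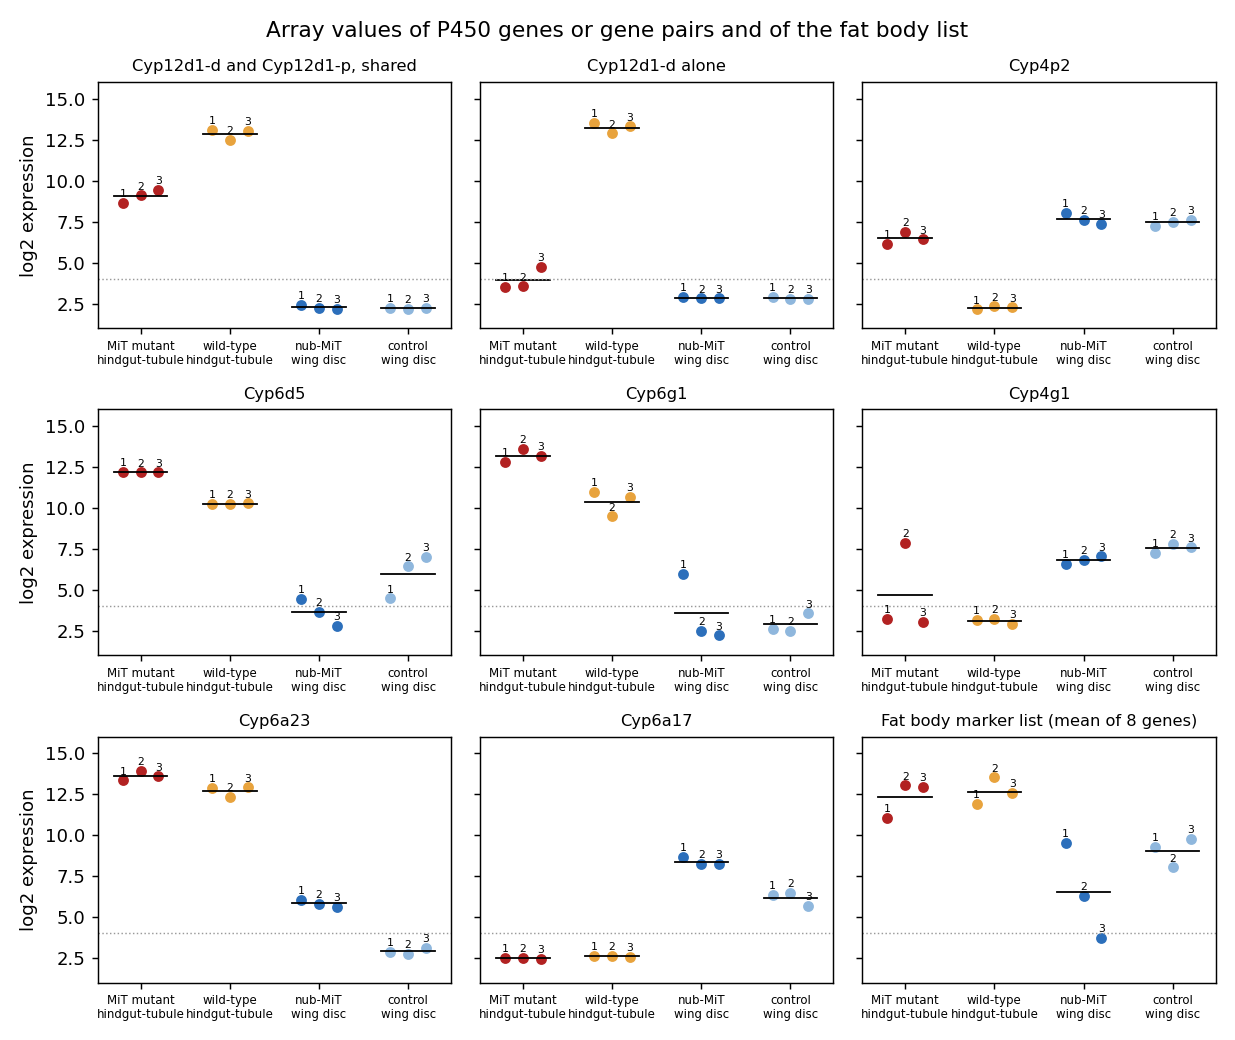
Log2 expression on each array (points, with the array number) and group mean (line) of 7 P450 genes or gene pairs, 1 with a second probe set for Cyp12d1-d alone, and of the fat body marker list; the dotted line is log2 4. Cyp12d1 is lower and Cyp4p2, Cyp6d5 and Cyp6g1 are higher in mutant than in wild-type hindgut-tubule, while Cyp6a23 and Cyp6a17 are higher in discs labelled nub-MiT than in control discs.

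Discs labelled nub-MiT were compared with control discs to ask what MiT gain changes in the wing disc. Of 25 members tested, 14 were higher in discs labelled nub-MiT, 1 was lower and 10 were not called. Of all tested probe sets, 15.0% were higher and 17.5% lower. The tested members had a median log2 difference of 0.66 (0.65 with values under log2 4 set to 4), beside -0.04 over all tested probe sets, and the ranges were apart for 19, beside 50.7% of all. Here 5 members passed the filter through the discs labelled nub-MiT alone, so their values had to be higher there, with ranges apart. Among the 14 members over log2 4 on all 6 arrays, 8 were higher and 1 was lower, beside 14.0% and 17.5% of all such probe sets. Of the 14 higher calls, 13 were kept whichever array was left out. The 13 include the 5 members whose direction the filter fixed, and the filter was not redone on fewer arrays. Cyp12a5 lost its call without any array but control disc array 2, with adjusted p-values of up to 0.118. Marker lists moved in this comparison too: 6 of 7 hemocyte, 5 of 8 muscle and 2 of 3 tested tracheal markers were higher in the discs labelled nub-MiT, and 5 of 7 wing disc markers were lower. Mean hemocyte levels were 8.06 to 8.71 in the discs labelled nub-MiT, against 5.86 to 6.68 in control discs. Mean muscle levels were 12.18 to 12.44, against 11.49 to 11.89, and mean tracheal levels were 8.54 to 8.73, against 8.62 to 8.94. Their part in the P450 differences was not tested.

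The increases covered 7 of 9 tested members of family 6, 3 of 3 of family 9, 2 of 5 of family 4, 1 of 3 of family 12 and 1 of 2 of family 28. These counts include Cyp4c3, Cyp6a13, Cyp6a21, Cyp6a23 and Cyp28a5, which had no control disc array over log2 4. The filter fixed the direction of those members. Cyp6a23 was at 6.05, 5.81 and 5.62 in discs labelled nub-MiT, against 2.88, 2.75 and 3.12 in control discs. It was thus over the level on every disc array labelled nub-MiT and under it on every control disc array, at least 3.54-fold higher (adjusted p = 0.000122). Its paralogue Cyp6a17 was measured on all disc arrays, with 8.66, 8.24 and 8.25 in those labelled nub-MiT against 6.35, 6.46 and 5.68 in control discs, 4.67-fold higher (adjusted p = 0.00156). Both genes belong to the 9-member run, in which 3 of 3 tested members were higher in discs labelled nub-MiT. The other was Cyp6a21, at 5.35, 4.77 and 4.81 against 3.46, 3.75 and 2.93 (at least 1.97-fold, adjusted p = 0.0061). Of the 3, Cyp6a17 alone could have gone either way.

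Outside that run, Cyp4c3 was at 5.48, 5.28 and 4.95 in discs labelled nub-MiT, against 3.12, 3.29 and 2.11 in control discs (at least 2.36-fold higher, adjusted p = 0.00378). Cyp28a5 was at 5.61, 4.46 and 4.63, against 2.77, 2.71 and 2.68 (at least 1.87-fold, adjusted p = 0.00379). Both were under the level on all control disc arrays. Cyp9f2 was at 7.94, 7.78 and 7.75 in discs labelled nub-MiT, against 6.15, 6.52 and 5.94 in control discs (3.08-fold, adjusted p = 0.00119). Cyp9c1 was at 9.34, 9.04 and 9.05, against 7.74, 7.83 and 7.62 (2.66-fold, adjusted p = 0.000551). Cyp6d2 was 2.20-fold higher and Cyp6a13 at least 1.82-fold. The filter left no overlap possible for Cyp4c3, Cyp28a5 and Cyp6a13. For Cyp9f2, Cyp9c1 and Cyp6d2, which could have gone either way, the ranges of the groups were apart, beside 50.7% of all tested probe sets.

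The remaining higher members changed by less than 2-fold: Cyp6d4 by 0.99, Cyp12a5 by 0.82, Cyp4p1 by 0.66, Cyp9f3Psi by 0.65 and Cyp6u1 by 0.50 on the log2 scale. Cyp4g1 was the lower member, at 6.59, 6.81 and 7.04 in discs labelled nub-MiT against 7.25, 7.80 and 7.60 in control discs (log2 difference -0.74, adjusted p = 0.0234). Its call was lost without array 1 or 2 of the discs labelled nub-MiT or without control disc array 2 or 3, with adjusted p-values of up to 0.0704.

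Cyp6d5 had a larger difference that did not pass the test. It was at 4.44, 3.65 and 2.80 in discs labelled nub-MiT, against 4.48, 6.43 and 7.03 in control discs (log2 difference -2.35, adjusted p = 0.0509). The fat body list ranked the 3 arrays labelled nub-MiT in the same way, at 9.54, 6.30 and 3.75. It was at 9.28, 8.03 and 9.76 in control discs, where array 1 was lowest for Cyp6d5 and array 2 for the list. The part of the list in Cyp6d5 was not tested. Cyp6g1 was left out by the filter, since it passed the level on 1 disc array alone, at 5.98 on array 1 labelled nub-MiT. The fat body level there, 9.54, was the highest of the 3 but under the 9.76 of control disc array 3. The other disc values of Cyp6g1 were 2.50 and 2.22 in discs labelled nub-MiT and 2.61, 2.51 and 3.57 in control discs. The part of the fat body list in Cyp6g1 was not tested. Cyp310a1 and Cyp4p2, both measured in all discs, had differences of 0.43 (95% interval 0.09 to 0.78, adjusted p = 0.0583) and 0.24 (-0.20 to 0.68, adjusted p = 0.352). Cyp4e2 had -0.11 (-0.29 to 0.07).

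**Figure D5:**
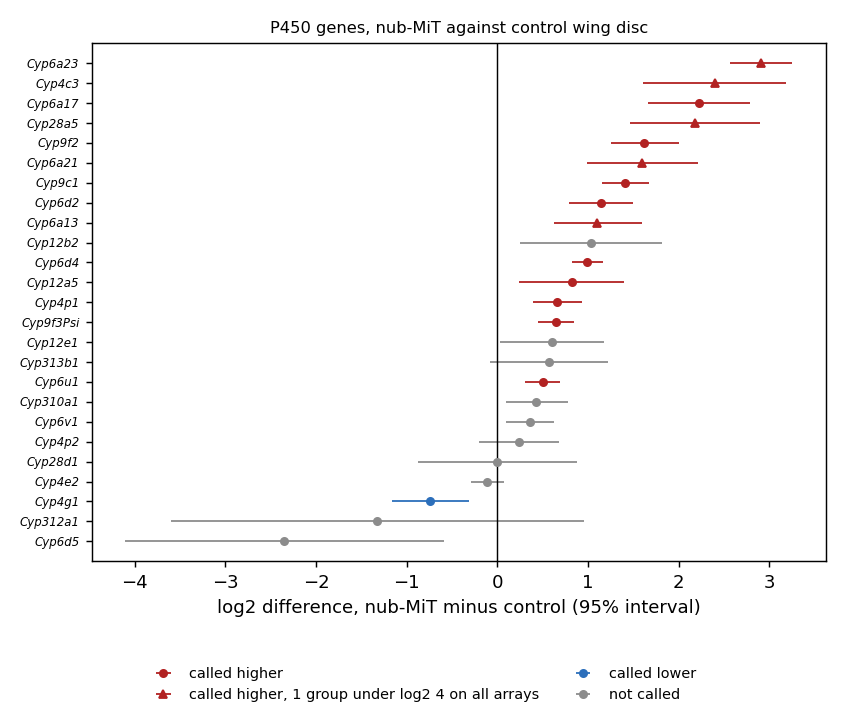
Log2 difference of each of the 25 tested P450 members, discs labelled nub-MiT minus control wing discs, with 95% intervals from limma. The 14 higher members include Cyp6u1 at 0.50 and Cyp6a17 at 2.22, and Cyp4g1 was called lower. Triangles mark members under log2 4 on all control disc arrays, Cyp6a23 among them, whose places rest on background values.

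The study looked for loci lowered by MiT loss and raised by MiT gain. Of 21 members tested in both MiT comparisons, limma called 0 lower in mutant hindgut-tubule samples and higher in discs labelled nub-MiT, beside 0.548% of all probe sets tested in both. At an unadjusted p under 0.05 in each comparison there were 2, Cyp4p1 and Cyp12b2, and with the adjusted p-values of the authors' deposited table there was 1. It called 3 members higher in both, Cyp6a13, Cyp9c1 and Cyp12a5, beside 0.745% of all. That count was 0 without mutant array 3, without wild-type array 1 or without wild-type array 3, and 1 without mutant array 1. The filter fixed the disc direction of Cyp6a13, which had no control disc array over log2 4. Limma called 0 lower in both, where an unadjusted p gave 0, and 0 higher in the mutant and lower in the discs labelled nub-MiT, where it gave 1, Cyp6d5. Over all probe sets these shares were 0.309% and 0.0984%. Cyp4p1 had log2 differences of -0.65 in the mutant (11.16, 11.22 and 11.44 against 11.92, 11.85 and 12.01 in wild type; adjusted p = 0.0631) and 0.66 in discs labelled nub-MiT (6.95, 6.94 and 6.85 against 6.08, 6.21 and 6.47 in control discs; adjusted p = 0.00766). Its mutant call was gained with all 12 arrays in 1 fit and with limma's trend and robust options. By the adjusted p-values of the authors' deposited table Cyp4p1 was called in both comparisons (0.0138 and 0.0151). It is the 1 member counted above by that table. Cyp28a5 had a log2 difference of -1.70 in the mutant, where it was not called, and was at least 1.87-fold higher in discs labelled nub-MiT. The filter fixed that disc direction. Cyp6d5 ran the other way, with 1.93 in the mutant and -2.35 in the discs, where it was not called. These 3 genes were singled out after their values were seen.

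Genes that serve P450 enzymes were taken from 3 lists. Over all tested probe sets, 29.6% were higher and 47.5% lower between the tissues. The shares were 2.42% and 2.14% in the mutant, and 15.0% and 17.5% in the discs labelled nub-MiT. The electron donor list was higher in wild-type hindgut-tubule samples than in control discs for 6 of 6 genes. Cpr, the reductase of microsomal P450 enzymes, averaged 11.42 ± 0.13 in wild-type hindgut-tubule samples and 10.10 ± 0.10 in control discs (SD, n = 3 each; log2 difference 1.32, adjusted p from limma = 8.69e-05). The mitochondrial donors moved the same way, by 0.80 for dare, the ferredoxin reductase, 1.08 for Fdx1 and 2.29 for Fdx2. Cyt-b5 differed by 1.41. Cyt-b5-r, a protein related to cytochrome b5, was under log2 4 on all control disc arrays and at least 48.4-fold higher in wild-type hindgut-tubule samples. The filter fixed the direction of Cyt-b5-r. Limma called 0 of 6 electron donor genes in the mutant, with 1 at an unadjusted p under 0.05 and the same gene, Cpr, in the authors' deposited table. It called 0 of 5 in the discs labelled nub-MiT, with 2 at an unadjusted p under 0.05, Cyt-b5 and Fdx1, and 0 in the authors' deposited table. Cpr averaged 12.21 ± 0.26 in mutant samples, against 11.42 ± 0.13 in wild type (SD, n = 3 each; log2 difference 0.79, limma adjusted p = 0.0701).

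Of 9 genes of heme synthesis and breakdown, 1 was higher and 1 lower in wild-type hindgut-tubule samples than in control discs, by 0.41 for Ppox and -0.73 for Updo. The shares over all tested probe sets were 29.6% higher and 47.5% lower there, 2.42% and 2.14% in the mutant, and 15.0% and 17.5% in the discs labelled nub-MiT. In the mutant limma called 0 of 9, with 1 at an unadjusted p under 0.05, Pbgs, and 0 in the authors' deposited table. In discs labelled nub-MiT 3 were higher, among them Alas, which starts heme synthesis, by 0.39 and Ppox by 0.27. Coprox was lower by -0.40 and Ho, the heme oxygenase that degrades heme, by -1.22 (limma adjusted p = 0.0129 and 0.0279). The synthesis genes thus did not share 1 direction in the discs, and the authors' deposited table called 0 of the 9 there.

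The list of regulators holds 8 factors known to control detoxification genes. Hr96, a nuclear receptor for foreign compounds, and Keap1, the inhibitor of cnc, were higher in wild-type hindgut-tubule samples than in control discs by 1.69 and 0.79. The aryl hydrocarbon receptor homologue ss, under log2 4 on all wild-type hindgut-tubule arrays, was at least 12.6-fold lower there, and its partner tgo was lower, with a log2 difference of -1.76. The filter fixed the direction of ss. In mutant hindgut-tubule samples limma called 0 of 5 tested regulators, with 0 at an unadjusted p under 0.05 and 0 in the authors' deposited table. Of all tested probe sets, limma called 2.42% higher and 2.14% lower there. In discs labelled nub-MiT, cnc, the fly Nrf2 factor, was higher by 0.27 and its partner maf-S was lower by -0.48 (limma adjusted p = 0.0452 and 0.0114), and the authors' deposited table called 0 regulators in the discs. The juvenile hormone receptors Met and gce were under log2 4 on all 12 arrays.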

How the data were processed

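RNA (500 ng per array) was hybridised to Affymetrix Drosophila_2 arrays with a 3' IVT kit, per the labels. The authors deposited log2 expression levels made with GCRMA, per the submitters' processing notes, with no version given in the sources used here. GCRMA subtracts background and normalizes between arrays, so values near the bottom of the scale carry no order. The authors also deposited p-values of an analysis of variance with a step-up adjustment for multiple tests, and fold changes that carry a sign, held here as a score, per the file headers. The fold for the discs sets control against nub-MiT in that table, so genes higher in nub-MiT carry a negative sign, which was reversed here. Those p-values were used as an alternative alone, and the folds only gave the direction of the calls made with them.

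Of 18952 probe sets, 183 Affymetrix controls were left out. Of the 83 probe sets that matched the symbol rule without Cyp18a1, 80 were kept, the one with the highest mean for each gene. Symbols were compared with a RefSeq table of Release 6, used for names and gene order; 79 of 80 were the same. Groups and array numbers came from the titles. Each comparison was fitted on its own 6 arrays by the lmFit and eBayes functions of limma 3.58.1 under R 4.3.3, since the tissues differed in spread: replicate SDs averaged 0.37 and 0.34 over probe sets in mutant and wild-type hindgut-tubule samples, and 0.15 and 0.18 in nub-MiT and control discs. Probe sets at log2 4 or more on at least 3 of the 6 arrays were tested: 7887 for the mutant, 7888 for the discs and 8410 for the tissues. Replicate arrays correlated at 0.948 to 0.995 in the mutant, 0.981 to 0.991 in wild type and 0.994 to 0.996 in each disc group. The number of arrays limits the precision. The fitting step was tested on simulated data.

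Deviations from the group means of arrays with the same number correlated at 0.292, 0.378 and 0.142 over probe sets in the hindgut-tubule groups. By the rule that every such value exceed 0.1, these numbers were taken to pair the arrays; the labels do not state a pairing, and mutant array 3 correlated better with wild-type array 1 (0.336) than with array 3. In the discs the values were 0.335, -0.0538 and -0.179, and the numbers were not taken to pair them.

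The text names members called with at least a 2-fold difference in a MiT comparison, the 10 with the highest mean in each group, the 10 with the largest called tissue difference in each direction, a list with known roles, the partner lists and Mitf. Levels were ranked between probe sets for this choice alone. Partner genes without a call are mostly given as counts, and 1 called partner gene is not reported here. Members outside this rule are named to complete a count or where the text says so, after their values were seen. The members and lists were chosen with earlier results of these data known. Alternatives were all 12 arrays in 1 fit, the replicate block, other filters, trend and robust moderation, quantile normalization, centring, the mean over probe sets, single arrays left out and the authors' adjusted p-values.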

Additional observations from a re-analysis of the deposited data

How the results depend on the processing

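For the tissue comparison the count of higher P450 members was within 1.5 times of 44 under every alternative run, and the lower member Cyp6v1 lost its call under several. The filter at log2 5 left 42 higher, without Cyp309a1 and Cyp4ac1, which it leaves untested. In the mutant, the 9 higher and 3 lower members became 18 and 5 with all 12 arrays in 1 fit, 4 and 1 without the filter, and 16 and 4 without array 2 of both groups; leaving out 1 array gave 2 to 11 higher and 1 to 5 lower. In the discs, the 14 higher members became 9 with the filter at log2 5, which leaves 14 members to test, and 8 by the authors' deposited p-values; leaving out 1 array gave 13 to 16. The 1 lower member became 2 with the filter over 12 arrays, with quantile normalization and with centring, and 0 by the authors' p-values; leaving out 1 array gave 0 to 2. Partner genes higher in the mutant numbered 0, against 2 with all 12 arrays, 1 without array 2 of both groups, 1 by the authors' p-values and 0 to 1 with 1 array left out. In the discs 4 partner genes were higher and 3 lower, against 0 and 1 with all 12 arrays, 0 and 0 by the authors' p-values, and 2 higher with the replicate block; with 1 array left out 1 to 4 were higher. The count of members lower in the mutant and higher in nub-MiT discs, 0, became 1 with all 12 arrays, with trend and robust moderation and by the authors' p-values, and was 0 to 1 with 1 array left out. The count higher in both, 3, became 6 with all 12 arrays, 1 with the filter at log2 5, 1 with centring and 5 without array 2 of both groups, and was 0 to 4 with 1 array left out. The Mitf difference in the mutant ran from -2.39 to -1.94 with 1 array left out. For changes not explained by fewer arrays or members tested, the cause was not tested.

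Over all probe sets, the 191 higher and 169 lower in the mutant became 717 and 660 with all 12 arrays, 462 and 392 by the authors' p-values and 476 and 381 without array 2 of both groups, and fell to 63 and 67 without mutant array 3. The 1181 higher and 1381 lower in the discs became 628 and 483 with all 12 arrays and 409 and 284 by the authors' p-values. The replicate block gave 201 and 211 in the mutant, 920 and 930 in the discs, and 2403 and 3861 in the tissue comparison against 2490 and 3995. Among the P450 members the block left 8 higher and 2 lower in the mutant and 17 higher and 1 lower in the discs, where the numbers were not taken to pair the arrays.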
